A study of Rattus norvegicus with 60 samples.

Results

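Genes of cholesterol and fatty acid synthesis were followed through hepatocytes and mesenchymal liver cells of rats given cyproterone acetate (CPA) or phenobarbital (PB). The 36 genes were taken from a list of lipid synthesis genes of the type that sterol regulatory element binding proteins (SREBPs) control, 20 in a sterol branch and 16 in a fatty acid branch. Expression was measured for 35 of them, 19 sterol and 16 fatty acid genes, among 14217 genes in all. Expression of Hmgcs1, an enzyme at the start of the sterol pathway, was not analysed here.

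Cholesterol is built from acetyl-CoA through mevalonate, isoprenoid phosphates, squalene and lanosterol, and fatty acids are built from acetyl-CoA by carboxylation, chain growth, elongation and desaturation. SREBP-2 (gene Srebf2) mainly drives the sterol enzymes, and SREBP-1c (from Srebf1), together with the carbohydrate sensor ChREBP (Mlxipl), mainly drives the fatty acid enzymes. When sterols are plentiful, INSIG proteins hold the SREBP precursors in the endoplasmic reticulum, so that sterol gene transcription declines. The liver is a main site of both pathways.

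The rats were Wistar (Han-Wistar per the protocol), 8 weeks old. CPA, a synthetic steroid, was given by gavage at 100 mg/kg, once with RNA taken at 24 h or on each of 6 d, and its controls received corn oil (CO, 10 ml/kg) for the same time. PB, a barbiturate, was given at 50 mg/kg, by a single gavage for the 24 h groups or in the drinking water for 14 d, with water (H2O) as the control in the sample labels. Hepatocytes (HC) and mesenchymal cells (MC) each gave 30 arrays: 5 for CO at 24 h, 4 for a further 24 h corn oil group coded CO_Co, and 3 for each other group. What sets CO_Co apart is not stated, and it served only as an alternative control. CPA and corn oil rats were labelled female. PB and water rats were labelled male, except replicate 3 at 24 h, labelled female, although the protocol names only males for PB. On those 4 arrays Xist, an RNA made from the inactive X chromosome, was 2.11 at most, against at least 8.17 on every CPA and corn oil array. The labels do not say how the fractions were separated or whether replicates were separate animals, so p-values measure the spread between these samples.

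All values are log2 signals, so a difference of 1 is 2-fold, and the number of arrays limits their precision. The array medians were close to each other, between 3.25 and 3.39 for HC arrays and 3.39 to 3.44 for MC arrays. The mean of 17 hepatocyte markers ran from 11.43 to 12.07 over the HC arrays and from 6.61 to 10.34 over the MC arrays, so MC samples held varying amounts of hepatocyte RNA. In MC the list means were 9.49 to 11.12 for Kupffer cell and macrophage markers, 8.66 to 10.16 for sinusoidal endothelium and 4.50 to 6.27 for stellate cells, and 5 of 12 stellate markers had a median under 4. On the HC arrays the same lists had means of 3.36 to 6.51, 2.86 to 4.43 and 3.00 to 4.09. In such bulk RNA, fewer cells of a type and less RNA per cell cannot be told apart.

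Promoter sequences are shown for 5 members whose values are described in detail, because members moved together and their control regions can be compared by eye. They are the 250 bases before the annotated start in RefSeq's GRCr8 table, 5′ to 3′ on the gene's strand, with CCAAT (or its reverse complement ATTGG) and CACGTG in capitals. Insig1 lies at chr4:8057770-8058019 (minus strand), Hsd17b7 at chr13:84722755-84723004 (minus), Tm7sf2 at chr1:212789542-212789791 (minus), Acss2 at chr3:164464453-164464702 (plus) and Thrsp at chr1:161138965-161139214 (minus).
Insig1: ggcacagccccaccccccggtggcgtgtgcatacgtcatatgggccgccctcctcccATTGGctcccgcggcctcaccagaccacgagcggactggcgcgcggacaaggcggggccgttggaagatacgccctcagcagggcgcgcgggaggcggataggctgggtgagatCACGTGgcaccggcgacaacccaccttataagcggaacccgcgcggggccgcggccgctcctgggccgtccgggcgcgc
Hsd17b7: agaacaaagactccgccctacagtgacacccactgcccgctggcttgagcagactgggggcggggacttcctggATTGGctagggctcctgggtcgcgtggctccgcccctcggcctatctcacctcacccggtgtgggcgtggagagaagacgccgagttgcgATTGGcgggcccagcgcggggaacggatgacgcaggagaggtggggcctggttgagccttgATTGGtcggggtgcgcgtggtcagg
Tm7sf2: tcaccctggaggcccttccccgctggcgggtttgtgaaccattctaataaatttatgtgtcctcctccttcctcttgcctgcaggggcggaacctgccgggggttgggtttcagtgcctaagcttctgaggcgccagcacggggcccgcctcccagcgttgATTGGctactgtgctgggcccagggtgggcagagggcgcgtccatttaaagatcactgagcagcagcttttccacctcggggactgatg
Acss2: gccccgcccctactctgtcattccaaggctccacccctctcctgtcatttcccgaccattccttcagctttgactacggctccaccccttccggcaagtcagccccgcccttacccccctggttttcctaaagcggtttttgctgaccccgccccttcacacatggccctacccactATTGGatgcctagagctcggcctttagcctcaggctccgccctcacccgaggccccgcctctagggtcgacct
Thrsp: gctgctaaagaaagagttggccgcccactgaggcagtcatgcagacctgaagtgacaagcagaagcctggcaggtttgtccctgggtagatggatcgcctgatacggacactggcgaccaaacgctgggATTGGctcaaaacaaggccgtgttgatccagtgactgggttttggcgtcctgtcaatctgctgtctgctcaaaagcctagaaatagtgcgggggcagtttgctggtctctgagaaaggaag
Each of these stretches holds at least 1 CCAAT box, the core motif of the factor NF-Y, and Hsd17b7 holds 3. The Insig1 stretch also holds CACGTG, an E-box. Not every member holds a CCAAT box: the promoters of Acat2, Cyp51, Dhcr7, Fads2, Me1 and Scd had none. Of these, Dhcr7, Fads2, Me1 and Scd are also given by array below.

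The table held promoters (300 bases, from 250 before to 50 after the start) for 29 of the 36 genes, 16 sterol genes with 16 promoters and 13 fatty acid genes with 15. The 16 sterol promoters include that of Hmgcs1, which is not among the genes tested for expression. Genes without an entry were Fdft1, Sqle, Pmvk, Stard4, Fasn, Acaca and Elovl6. CCAAT, on either strand, was in 81.2% of sterol and 80.0% of fatty acid promoters, against 36.8% of the promoters of all genes tested. The GC box GGGCGG was in 93.8% of sterol and 60% of fatty acid promoters, against 55.7%. CACGTG was in 12.5% and 6.7%, against 8.6%. TCACNCCAC, a core of the sterol regulatory element, was in 0 promoters of either branch and in 1.1% of those of all genes tested. With 16 and 15 promoters searched, 0 cannot be told apart from that share, and variants of the sequence were not counted. These matches describe letters in the window and are no measure of binding. The motifs searched were counted separately, on both strands, and a promoter that holds several counts for each.

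CPA lowered most genes of both branches in hepatocytes at 24 h. Of the 35 genes, 26 passed the test (limma, Benjamini-Hochberg adjusted p under 0.05 over 14217 genes) and all 26 were lower, 17 of 19 sterol and 9 of 16 fatty acid genes. In this comparison 34.2% of all genes were called in either direction and 11.7% were called lower. The median log2 change was -1.01 in the sterol branch and -1.09 in the fatty acid branch, against -0.01 over all genes. Of the called genes, 18 were lower by 1 or more. On the arrays themselves, 15 sterol and 10 fatty acid genes had all CPA values below all corn oil values and 1 fatty acid gene had them above, where 37.1% of all genes did not overlap.

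After 6 d the decrease was still present. Here 25 of 35 genes were called, all lower, 15 sterol and 10 fatty acid genes, where 24.2% of all genes were called in either direction and 9.29% lower. The medians were -1.24 and -1.07, against -0.01 over all genes. CPA arrays lay below all corn oil arrays for 17 sterol and 14 fatty acid genes and above for 1, where 42.4% of all genes did not overlap. Called at both times were 23 genes, which is 88.5% of the 24 h calls and 92% of the 6 d calls. Idi1, Mvk and Acaca passed at 24 h alone, and Scd and Mlxipl at 6 d alone. Dhcr7, Sqle, Acacb, Elovl6, Gpam, Me1 and Pnpla3 passed at neither time.

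**Figure D1:**
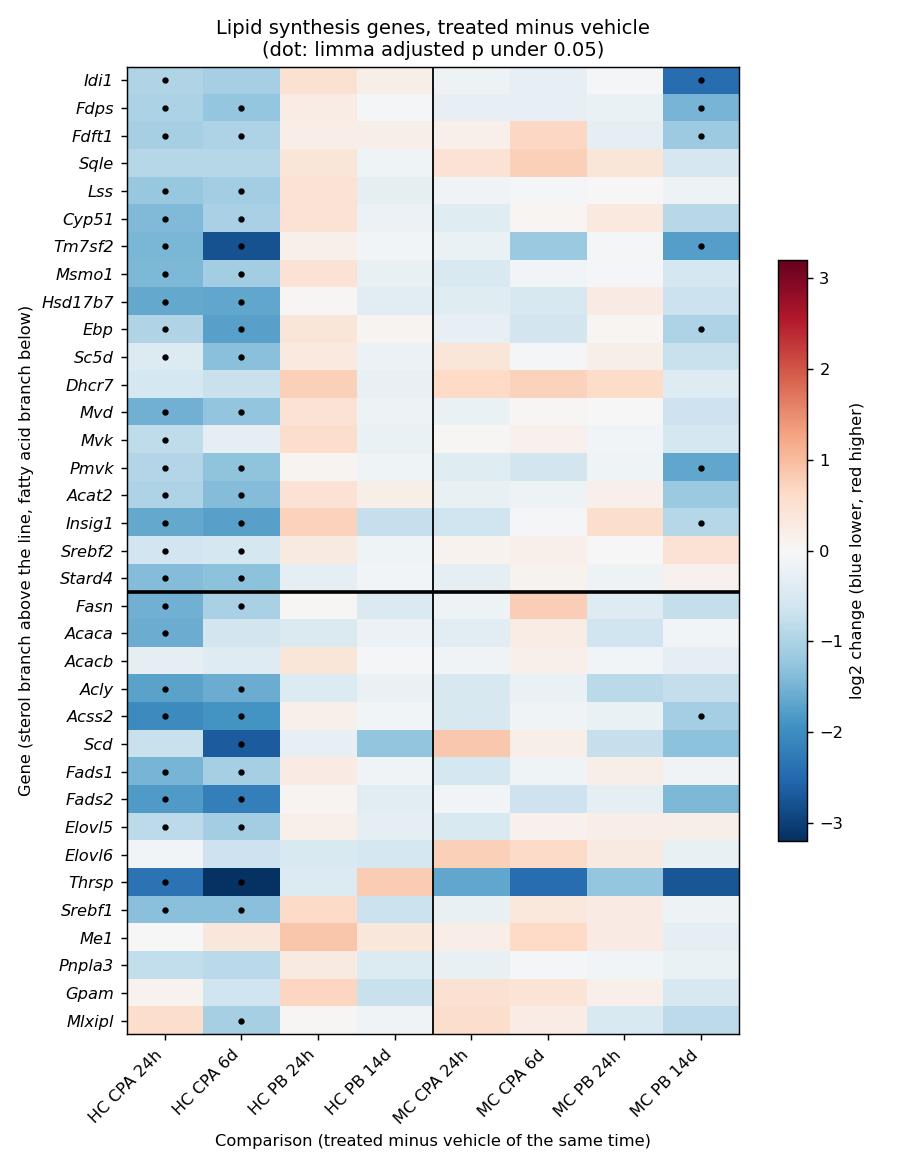
Log2 change, treated minus vehicle of the same time, for the 35 genes (rows) in 8 comparisons (columns; HC hepatocytes, MC mesenchymal cells), with a dot where the limma adjusted p was under 0.05. The 2 CPA columns of HC hold 26 and 25 dots, MC PB 14d holds 8, and the other 5 columns hold 0.

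Among the sterol genes, the earliest steps of the pathway make and activate mevalonate. Mvd, the decarboxylase that yields isopentenyl pyrophosphate, read 6.52, 5.96, 5.63, 6.72 and 7.20 in the CO arrays and 4.98, 4.56 and 5.07 in the CPA arrays at 24 h. All CPA arrays lay below all CO arrays. The change was -1.53 (SE 0.37, adjusted p = 0.00164), and at 6 d it was -1.25 (adjusted p = 0.0261). Mvk, mevalonate kinase, changed by -0.81 at 24 h and stood at -0.28 at 6 d (95% interval -0.80 to 0.23, not called). Pmvk, the next kinase, changed by -0.93 and -1.29, and Acat2, a thiolase that joins acetyl-CoA units, by -0.99 and -1.40. Idi1 and Fdps make and condense the isoprenoid units. Fdps changed by -1.01 and -1.24, and Idi1 by -0.96 at 24 h (adjusted p = 0.045), with -1.06 at 6 d (adjusted p = 0.0631, not called).

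Squalene formation and the steps after it moved unevenly. Fdft1, squalene synthase, changed by -1.07 and -0.98. Sqle, squalene epoxidase and a rate-limiting step, stood at 7.11, 6.83 and 7.52 with CPA at 24 h against 8.24, 7.23, 7.93, 8.45 and 8.49 with corn oil. Those groups overlapped, and Sqle was not called at 24 h (-0.92, adjusted p = 0.0552) or at 6 d (-0.91, adjusted p = 0.112). Lss, which closes the sterol rings, changed by -1.22 and -1.11, and Cyp51, which removes a methyl group of lanosterol, by -1.41 and -1.05.

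Tm7sf2, a sterol C14 reductase that acts after Cyp51, showed the largest decrease of the sterol branch at 6 d. At 24 h it read 10.06, 9.73, 9.94, 9.97 and 10.01 with corn oil and 8.99, 8.10 and 8.33 with CPA. At 6 d it read 9.43, 10.21 and 9.98 with corn oil and 7.90, 6.73 and 6.59 with CPA. The groups did not overlap at either time, and the change was -1.47 at 24 h (SE 0.23, adjusted p = 1.32e-05) and -2.80 at 6 d (SE 0.26, adjusted p = 7.52e-09), or 6.95-fold. Hsd17b7, a 3-ketosteroid reductase of sterol demethylation, had the largest change of the branch at 24 h. It read 8.44, 7.88, 7.92, 8.72 and 9.06 in CO arrays and 6.77, 6.17 and 7.37 in CPA arrays. That is -1.64 (SE 0.32, adjusted p = 0.000185), with -1.67 at 6 d (adjusted p = 0.000835) and no overlap at either time.

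The late sterol isomerase Ebp read 9.61, 10.05 and 9.79 with corn oil and 8.36, 8.03 and 7.85 with CPA at 6 d. Its change went from -0.96 at 24 h to -1.73 (adjusted p = 5.71e-07). Sc5d, the lathosterol oxidase, changed by -0.44 at 24 h and by -1.34 at 6 d, and Msmo1, a C4-methylsterol oxidase, by -1.45 and -1.10. Dhcr7, the reductase that completes cholesterol, stood at -0.57 (adjusted p = 0.0655) and -0.70 (adjusted p = 0.056). Every sterol gene measured had a value below 0 at both times, whether or not it was called.

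The regulators of the sterol branch were lower as well. Insig1, itself a target of SREBPs as well as their retention protein, read 10.33, 9.46, 10.30, 10.52 and 10.76 with corn oil and 8.86, 8.20 and 8.87 with CPA at 24 h. At 6 d it read 10.39, 10.79 and 10.55 against 9.27, 8.82 and 8.40. CPA arrays lay below the corn oil arrays at both times, by 1.63 (SE 0.25, adjusted p = 1.02e-05) and 1.75 (SE 0.28, adjusted p = 3.52e-05) in the mean. Srebf2 moved less, from 6.33 ± 0.15 (SD, n = 5) to 5.71 ± 0.19 (n = 3) at 24 h, or -0.62 (adjusted p = 0.0023), and by -0.57 at 6 d (adjusted p = 0.0151). Stard4, a sterol carrier, changed by -1.40 and -1.31 and had the smallest adjusted p of the branch at 24 h (2.1e-07).

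In the fatty acid branch, the mRNA signals of both enzymes that make cytosolic acetyl-CoA were lower. Acss2, which makes acetyl-CoA from acetate, read 9.89, 9.10, 9.20, 9.80 and 10.17 with corn oil and 7.97, 7.05 and 7.75 with CPA at 24 h. The groups were apart by more than the spread of either, with a change of -2.04 (SE 0.28, adjusted p = 2.54e-06) and -1.92 at 6 d (adjusted p = 4.76e-05). Acly, the ATP citrate lyase, fell from 9.89 ± 0.36 (n = 5) to 8.18 ± 0.33 (n = 3) at 24 h and from 9.86 ± 0.41 to 8.28 ± 0.43 (n = 3 each) at 6 d. Its changes were -1.71 (adjusted p = 2.28e-06) and -1.58 (adjusted p = 5.51e-05). Me1, the malic enzyme that supplies NADPH, did not follow: it was 7.61 ± 0.14 with corn oil and 7.60 ± 0.26 with CPA at 24 h, and 7.82 ± 0.23 and 8.19 ± 0.09 at 6 d. At 6 d its change of 0.37 had a 95% interval from -0.20 to 0.95 and was not called, while all 3 CPA arrays lay above the corn oil arrays. A further probe set of Me1, not tested, had higher means with CPA: 7.445 against 6.974 at 24 h and 7.822 against 7.174 at 6 d.

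The genes of chain synthesis were not all called at both times. Fasn, fatty acid synthase, read 9.46, 8.47, 8.57, 9.68 and 9.74 with corn oil and 8.09, 7.15 and 7.69 with CPA at 24 h. The change was -1.54 at 24 h (adjusted p = 0.00012) and -1.04 at 6 d (adjusted p = 0.0187). Acaca, the cytosolic acetyl-CoA carboxylase, changed by -1.58 at 24 h and stood at -0.59 at 6 d (95% interval -1.23 to 0.05, not called). The difference between the changes at 6 d and 24 h was not called for Fasn or Acaca. Acacb, the carboxylase of the mitochondrial surface, was dim in both groups, with means of 2.30 and 1.98 at 24 h.

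The desaturases and elongases differed from each other. Fads2, the delta-6 desaturase, read 8.77, 8.47, 8.55, 8.49 and 8.60 with corn oil and 7.63, 6.22 and 6.46 with CPA at 24 h. The 6 d values were 8.90, 9.30 and 9.03 against 7.27, 6.69 and 6.74. CPA arrays were lower without overlap, by 1.80 (adjusted p = 3.33e-07) and 2.18 (adjusted p = 1.57e-07). Fads1, the delta-5 desaturase, changed by -1.50 and -1.07, and Elovl5, which lengthens polyunsaturated chains, by -0.85 and -1.10. Elovl6, which lengthens saturated chains, stood at -0.08 (95% interval -0.73 to 0.56) and -0.67 (-1.39 to 0.05) and was not called.

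Scd, the stearoyl-CoA desaturase, was called at 6 d and not at 24 h. The 6 d arrays read 7.93, 8.32 and 9.67 with corn oil and 6.62, 5.94 and 5.35 with CPA, a change of -2.67 (SE 0.62, adjusted p = 0.00181). At 24 h it read 9.09, 8.34 and 7.24 with CPA against 8.50 to 9.51 with corn oil (-0.71, adjusted p = 0.354). The difference between its changes at the 2 times was -1.96 (95% interval -3.66 to -0.26, adjusted p = 0.121) and was not called. The CO_Co arrays of 24 h read 8.93, 10.59, 11.29 and 12.01 for Scd, a wider range than the other corn oil arrays. With CO_Co as the control, 27 genes were called at 24 h, all lower.

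Thrsp (Spot 14), a nuclear and cytosolic protein that accompanies lipogenesis, had the largest changes of all 35 genes. It read 10.16, 10.62, 9.72, 10.80 and 11.29 with corn oil and 8.12, 7.50 and 8.84 with CPA at 24 h. At 6 d it read 9.85, 11.27 and 11.30 against 8.58, 7.18 and 7.19. The groups did not overlap, with changes of -2.36 (SE 0.53, adjusted p = 0.000885), or 5.15-fold, and -3.16 (SE 0.60, adjusted p = 0.000228), or 8.93-fold. Srebf1 fell from 8.27 ± 0.43 (n = 5) to 6.94 ± 0.64 (n = 3) at 24 h and from 8.35 ± 0.36 to 7.02 ± 0.43 at 6 d, -1.33 each time (adjusted p = 0.000165 and 0.000901). Gpam, the acyltransferase that starts glycerolipid synthesis, stood at 0.11 and -0.64, and the lipid droplet lipase Pnpla3, dim in these arrays, at -0.78 and -0.87. None of these values of Gpam and Pnpla3 was called. Other probe sets of Pnpla3, also dim and not tested, had lower means with CPA. The brightest of them with corn oil read 1.593 with CPA against 3.436 at 24 h, and 1.757 against 3.616 at 6 d.

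**Figure D2:**
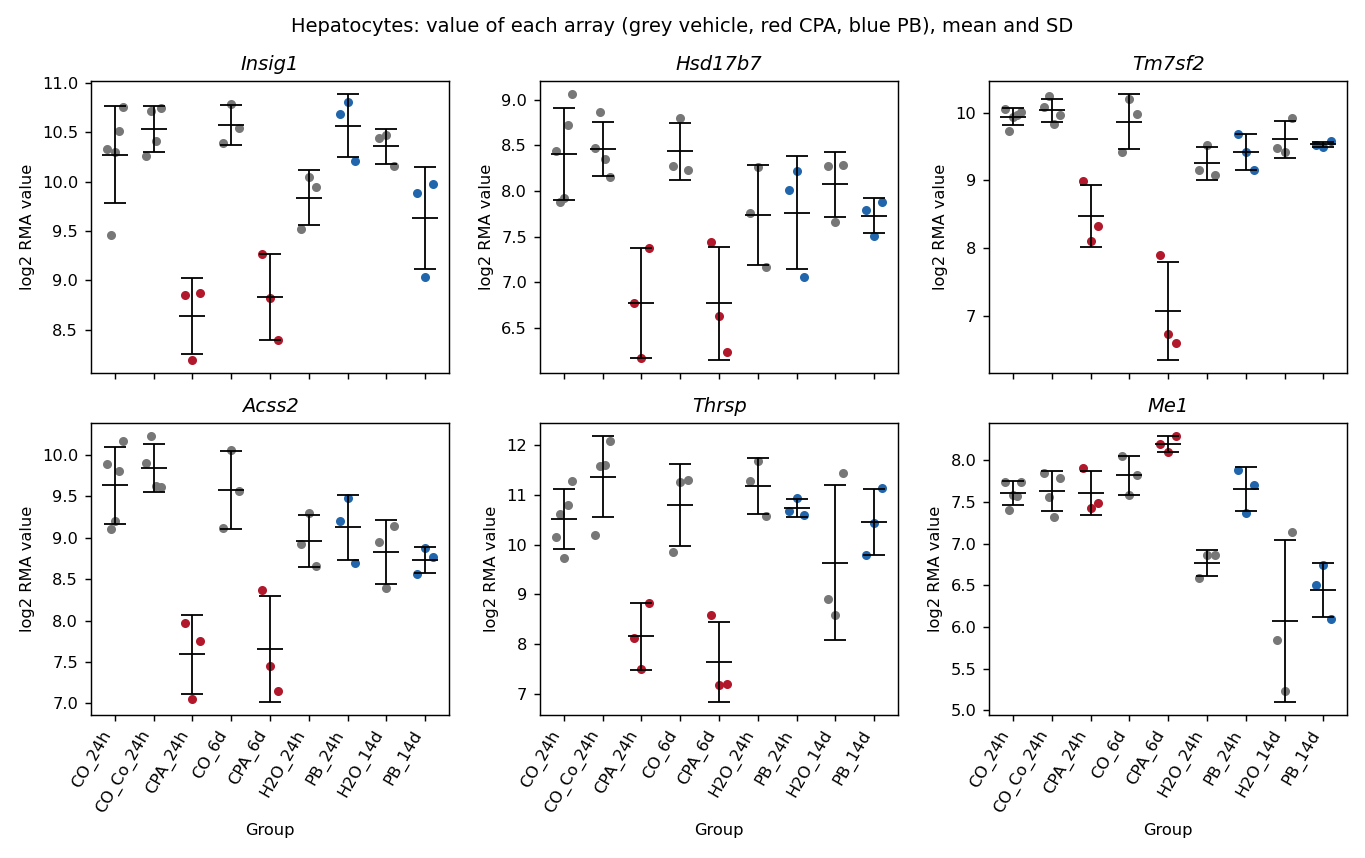
Log2 value of every hepatocyte array for 6 genes, by group (grey vehicle, red CPA, blue PB), with the mean and SD as bars. For Insig1, Hsd17b7, Tm7sf2, Acss2 and Thrsp the CPA arrays lie below the corn oil arrays of the same time, while Me1 averaged 7.60 with CPA and 7.61 with corn oil at 24 h.

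Mlxipl went opposite ways at the 2 times. It read 6.07, 6.67, 6.61, 6.71 and 6.95 with corn oil and 6.98, 7.25 and 7.24 with CPA at 24 h, all CPA arrays higher but not called (0.56, adjusted p = 0.0605). At 6 d it read 6.47, 6.53 and 6.62 with corn oil and 5.36, 5.24 and 5.81 with CPA, all CPA arrays lower (-1.07, adjusted p = 0.00228). The test of the 6 d effect minus the 24 h effect called 3 of the 35 genes, all lower, where 14.5% of all genes were called and 7.7% lower. They were Mlxipl (-1.63, adjusted p = 0.00178), Tm7sf2 (-1.33, adjusted p = 0.00958) and Sc5d (-0.89, adjusted p = 0.00218), each lower at 6 d.

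Of the 26 calls at 24 h, 23 were made in each of 18 alternative settings. Idi1, Sc5d and Acat2 lost theirs without CPA replicate 2, Idi1 and Sc5d also with CO_Co as the control, and Idi1 without CPA replicate 1 or any corn oil replicate but the second and with the Kupffer covariate below. Of the 25 calls at 6 d, 20 were made in each of 14 settings. Fdft1, Msmo1, Mvd, Srebf2 and Fasn were not called without corn oil replicate 2, CPA replicate 2 or CPA replicate 3, and each kept a negative value. Msmo1 was also lost without corn oil replicate 1, Fasn without corn oil replicate 3, and Srebf2 and Fasn with the Kupffer covariate. Other probe sets of the same genes, with a corn oil mean of at least 5, were lower in 13 of 14 cases at each time. The exception was that of Me1, which was higher. CPA arrays of HC also differed in cell markers. Of 17 hepatocyte markers 8 were lower and 1 higher at 24 h, and 7 and 1 at 6 d (median -0.24 each time), where 11.7% and 9.29% of all genes were lower. The mean of 11 Kupffer cell markers was 6.22 to 6.51 with CPA and 4.94 to 5.30 with corn oil at 6 d, and 3.36 to 4.87 against 3.53 to 5.97 at 24 h. With that marker mean as a covariate, 26 and 24 of the 35 genes were called, all lower. This setting was chosen after seeing the data, and the share of all genes called with it is not given. At 6 d the marker means of CPA and corn oil arrays did not overlap, and the part of Kupffer cell RNA was not tested.

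Further genes of the pathways were read from lists beside the 36. Their counts are to be read against the 34.2% of all genes called at 24 h (11.7% lower) and the 24.2% called at 6 d (9.29% lower). Of 10 other sterol pathway genes 5 were lower and 1 higher at 24 h in HC with CPA. The ketone-using synthetase Aacs (-2.03), the mitochondrial thiolase Acat1 (-1.17) and the sterol dehydrogenase Nsdhl (-0.70) were among the lower, and Insig2 was higher (1.80, adjusted p = 6.12e-05). Insig2, the relative of Insig1 that also retains SREBPs, read 11.23, 11.42 and 11.33 with CPA against 9.27, 9.47, 10.27, 9.60 and 9.03 with corn oil, the opposite direction to Insig1. At 6 d 2 of the 10 were lower (Aacs -2.74 and Nsdhl -1.45) and 1 higher (Soat1, which esterifies cholesterol, 0.74). Of 17 other lipogenic genes 7 were lower and 3 higher at 24 h, and 5 and 2 at 6 d. Lpin1, a phosphatidate phosphatase, was lower at both times (-1.55 and -1.34), and at 6 d the transketolase Tkt was higher (1.32). The acyl-CoA synthetase Acsl5 was lower at both times (-0.88 and -1.26), Pgd of the pentose phosphate pathway (-0.95) and Acsl3 (-0.94) at 24 h, and Dgat2, which completes triglycerides, at 6 d (-1.18). Of 8 genes of the sterol sensor LXR's pathway, 2 were lower and 1 higher at 24 h, and 1 and 2 at 6 d, or 37.5% called each time, at 24 h close to the share of all genes, with Nr1h3, the gene of LXR-alpha, at 0.51, the exporter Abca1 at -0.74 and the acyltransferase Lpcat3 at -0.70 at 24 h. At 6 d the sterol exporters Abcg8 (1.30) and Abcg1 (0.99) were higher and Lpcat3 lower (-0.56). Abcg8 and Soat1 were dim, with means of 2.27 and 3.56 over all arrays of both fractions.

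In mesenchymal cells CPA gave no call among the 35 genes at either time. At 24 h limma called 0 genes of the list, where 2.54% of all genes were called, and 7 of the 35 had an unadjusted p under 0.05, as had 1933 of all 14217. At 6 d it called 0, where 2.23% of all genes were called, and 2 had an unadjusted p under 0.05, as had 1374 of all genes. The branch medians were -0.22 and -0.20 at 24 h and -0.04 and 0.18 at 6 d. The sterol gene nearest to a call at 24 h was Insig1, at 7.52, 7.05 and 7.25 with CPA and 7.16, 7.48, 7.67, 8.76 and 8.49 with corn oil (-0.64, adjusted p = 0.226). In the fatty acid branch it was Elovl5, at 9.62, 9.67 and 9.45 against 9.90, 10.15, 10.06, 10.09 and 10.19 (-0.50, adjusted p = 0.126). Elovl5 was lower on all CPA arrays, while the Insig1 groups overlapped. Thrsp stood at -1.67, Acly at -0.52, Srebf1 at -0.24, Fasn at -0.17, Srebf2 at 0.11, Me1 at 0.21, Sqle at 0.46 and Scd at 0.85, with none called.

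At 6 d the nearest were Tm7sf2 and Thrsp. Tm7sf2 read 4.39, 4.21 and 4.64 with CPA and 5.57, 5.29 and 5.93 with corn oil (-1.18, 95% interval -2.12 to -0.25, adjusted p = 0.288). Thrsp read 7.01, 6.94 and 5.85 against 8.80, 9.15 and 9.13 (-2.43, 95% interval -4.44 to -0.42, adjusted p = 0.329). Both were lower on every CPA array without being called. Fasn stood at 0.78 (95% interval -0.04 to 1.59), Sqle at 0.76 (-0.08 to 1.59), Me1 at 0.63, Srebf1 at 0.33, Scd at 0.19, Srebf2 at 0.17, Insig1 at -0.03 and Acly at -0.21, again not called. The 6 d minus 24 h difference of the CPA effect in MC was called for 0 of 35 genes, where 0.506% of all genes were called. Among the other sterol genes Insig2 was higher in MC at 24 h too (2.39, adjusted p = 0.00272), on arrays at 7.40, 8.71 and 9.68 against 5.60 to 7.22.

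The test of the HC effect minus the MC effect of CPA asks whether the fractions differed. At 24 h 8 of 35 genes were called, where 8.43% of all genes were called and 2.23% lower, and all 8 were lower in HC relative to MC: Lss, Srebf2, Stard4, Acaca, Acly, Acss2, Fads2 and Srebf1. The differences ran up to -1.71 (Fads2, SE 0.52, adjusted p = 0.028), and all 35 values were below 0. The count was 19 without MC corn oil replicate 4, whose hepatocyte marker mean was the highest of its group at 10.34, and 1 without HC CPA replicate 2. With the replicate block of HC and MC arrays it was 13. At 6 d 10 were called, where 4.58% of all genes were called and 1.45% lower, again all lower in HC. Those were Fdft1, Insig1 (-1.72), Stard4 (-1.42), Fasn (-1.81), Acly, Acss2 (-1.82), Scd (-2.86, SE 0.82, adjusted p = 0.0288), Elovl5, Srebf1 (-1.66) and Mlxipl. That count was 5 without HC corn oil replicate 2, MC corn oil replicate 2, HC CPA replicate 2 or 3, or MC CPA replicate 2, and 6 without HC corn oil replicate 3 or MC CPA replicate 3. Stard4, Acly, Acss2 and Srebf1 were called at both times.

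**Figure D3:**
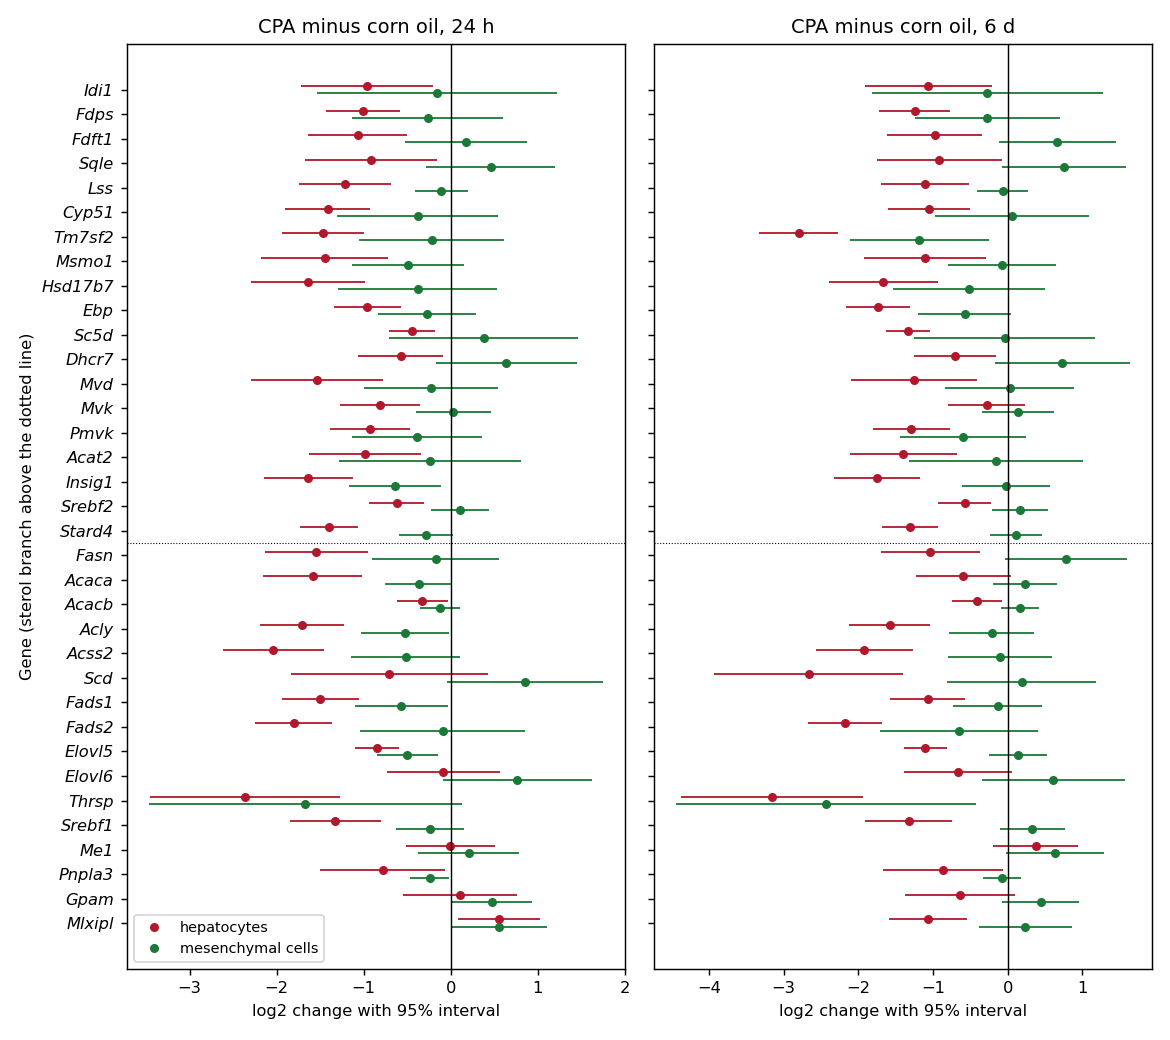
Log2 change (CPA minus corn oil) of each gene with its 95% interval, at 24 h (left) and 6 d (right), in hepatocytes (red) and mesenchymal cells (green). The HC points lie left of the MC points for all 35 genes at 24 h, where the smallest gap is that of Mlxipl, and for all 35 at 6 d.

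PB gave no call in hepatocytes at 24 h, and the values leaned upward in the sterol branch. Limma called 0 of 35 genes, where 0.0774% of all genes were called, and 7 of the 35 had an unadjusted p under 0.05, as had 986 of all 14217. Of 19 sterol genes 18 had a value above 0 (median 0.38), and of 16 fatty acid genes 11 (median 0.12), as had 6976 of all 14217. The sterol branch means of the arrays overlapped, at 8.56, 8.747 and 7.999 with PB and 8.05, 8.375 and 7.827 with water. The smallest p of the sterol branch was that of Dhcr7, at 9.69, 9.75 and 9.30 with PB and 8.90, 8.84 and 8.71 with water (0.76, 95% interval 0.21 to 1.31, adjusted p = 0.477). In the fatty acid branch it was Me1, at 7.88, 7.37 and 7.70 against 6.59, 6.86 and 6.86 (0.88, 95% interval 0.31 to 1.46, adjusted p = 0.435). PB arrays lay above the water arrays for both genes, which did not pass over all genes.

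The other genes followed in every comparison were as follows in HC with PB at 24 h. Insig1 read 10.68, 10.81 and 10.21 against 9.52, 10.05 and 9.95 (0.73, adjusted p = 0.567). Srebf1 read 8.97, 8.74 and 9.11 against 8.46, 8.33 and 8.18 (0.61, adjusted p = 0.697). For both, PB arrays were higher without overlap, as they were for 9 of the 35 genes and lower for 3, where 13% of all genes did not overlap. Srebf2 stood at 0.28, Sqle at 0.38, Fasn at 0.04, Acly at -0.44, Scd at -0.26 and Thrsp at -0.45. The 95% intervals of 18 of the 35 genes lay within 1 of 0 on the log2 scale.

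After 14 d of PB hepatocytes again had 0 of 35 genes called, where 0.0633% of all genes were called, and 2 had an unadjusted p under 0.05, as had 1576 of all 14217, a larger share. Those 2 were Insig1 and Srebf1, with lower means in PB arrays. Insig1 read 9.89, 9.03 and 9.98 against 10.45, 10.48 and 10.16 (-0.73, adjusted p = 0.317), and Srebf1 8.85, 8.78 and 8.75 against 9.68, 8.98 and 9.76 (-0.68, adjusted p = 0.368). Neither overlapped. PB arrays lay below all water arrays for 1 sterol and 4 fatty acid genes and above for 0, where 9.38% of all genes did not overlap, and the branch medians were -0.15 and -0.25. The 14 d minus 24 h difference of the PB effect was -1.46 for Insig1 (adjusted p = 0.272) and -1.29 for Srebf1 (adjusted p = 0.301). It was called for 0 of 35 genes, where 0.0352% of all genes were, and 7 had an unadjusted p under 0.05. PB was given by gavage at 24 h and in the drinking water at 14 d, so route and time cannot be told apart. Scd read 9.90, 9.03 and 7.71 against 10.04, 10.41 and 9.96 (-1.25, 95% interval -2.52 to 0.01), and Thrsp stood at 0.82, Me1 at 0.37, Fasn at -0.47, Acly at -0.21, Srebf2 at -0.15 and Sqle at -0.13.

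The PB effect minus the CPA effect in HC at 24 h was higher by test for 25 of 35 genes, where 20.8% of all genes were called and 6.56% higher. The 25 were 17 sterol and 8 fatty acid genes, with Insig1 at 2.36 (SE 0.38, adjusted p = 9.49e-05), Acss2 at 2.20 and Mvd at 2.01. The rats of the PB and CPA groups differed in compound, vehicle, labelled sex and dose together, which cannot be told apart.

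In mesenchymal cells PB at 24 h gave 0 calls among the 35 genes and 0 among all genes (0%), with 2 of 35 and 446 of 14217 at an unadjusted p under 0.05. Acaca had the smallest p, with 5.96, 6.02 and 6.02 against 6.89, 6.98 and 6.06 for water (-0.65, adjusted p = 0.999). All PB arrays lay below the water arrays, the lowest of which was replicate 3. Insig1 had the smallest p of the sterol genes, at 7.85, 8.72 and 8.25 against 7.71, 7.48 and 7.92 (0.57, adjusted p = 0.999), with overlap. Thrsp stood at -1.25, Acly at -0.86, Scd at -0.74, Fasn at -0.42, Srebf2 at 0.02, Srebf1 at 0.26, Me1 at 0.27 and Sqle at 0.39, none of them called. The 14 d minus 24 h difference of the PB effect in MC was called for 0 of 35 genes, where 0.00703% of all genes were called. Route and time differed together here as well.

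After 14 d of PB 8 of the 35 genes were lower in mesenchymal cells, 7 sterol genes and Acss2, where 18.4% of all genes were called in either direction and 9.02% lower. Idi1 read 5.61, 5.87 and 6.58 with PB and 8.87, 7.82 and 8.69 with water (-2.44, SE 0.75, adjusted p = 0.0294). Tm7sf2 read 4.87, 5.67 and 4.39 against 7.05, 6.64 and 6.55 (-1.77, adjusted p = 0.0137). Pmvk read 5.91, 6.40 and 5.96 against 8.05, 7.52 and 7.66 (-1.65, adjusted p = 0.0117). PB arrays were below water arrays for all 3 genes. Acss2 read 5.34, 5.96 and 5.06 against 7.05, 6.06 and 6.53 (-1.09, adjusted p = 0.0301), again without overlap but with 5.96 and 6.06 close together. Fdps (-1.48), Fdft1 (-1.15), Ebp (-0.98) and Insig1 (-0.90) completed the 8. PB arrays lay below all water arrays for 10 sterol and 8 fatty acid genes and above for 1, where 35.8% of all genes did not overlap.

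Several genes of both branches were near a call there. Thrsp read 6.62, 7.27 and 7.86 against 9.54, 9.36 and 11.05 (-2.74, adjusted p = 0.0513). Scd stood at -1.31 (adjusted p = 0.0594), Acly at -0.77 (adjusted p = 0.0533) and Fasn at -0.77 (adjusted p = 0.162). Sqle at -0.53, Me1 at -0.28 and Srebf1 at -0.16 were farther from a call. Srebf2 differed in sign, at 5.72, 5.78 and 5.55 with PB against 5.35, 5.13 and 5.15 (0.47, adjusted p = 0.0655, not called). The list counts that follow are to be read against the 18.4% of all 14217 genes called here, 1331 higher and 1283 lower. Of 10 other sterol genes 1 was lower (Acat1, -1.26) and 4 were higher, among them Soat1 (1.10) and the SREBP-cleaving proteases Mbtps1 (0.81) and Mbtps2 (0.75). Of 8 LXR pathway genes 2 were higher (Abcg1 0.87 and Abca1 0.79) and 0 lower. Of 17 other lipogenic genes 3 were lower, the glycolytic Pklr (-2.07), the acyltransferase Agpat2 (-2.06) and the citrate carrier Slc25a1 (-1.68), and 2 were higher, with Acsl5 at 0.66.

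Markers of several cell types moved with this result, and their part in it was not tested. The mean of the 17 hepatocyte markers was 8.29, 9.17 and 7.72 on the PB arrays and 10.23, 10.21 and 9.98 on the water arrays, with 5 markers lower, 0 higher and a median of -1.83. All 11 Kupffer cell markers had values above 0 (4 called, median 0.76; array means 10.62 to 10.77 against 9.49 to 10.34), as had all 12 endothelial markers (2 called, median 0.70; 9.75 to 10.01 against 8.97 to 9.24). All 4 erythroid markers had values below 0 (2 called, median -1.52). Of all 14217 genes 18.4% were called, 1331 higher and 1283 lower. The sterol branch mean was 5.34, 5.45 and 5.34 against 6.48, 6.01 and 6.18. With the marker mean as a covariate, 0 of the 35 genes were called. The count was also 0 without water replicate 1 or PB replicate 1, 3 without PB replicate 2 and 5 without PB replicate 3. With the replicate number as a block, which pairs these samples by their correlated deviations, 19 genes were called, 18 lower and 1 higher. The HC effect minus the MC effect of PB at 14 d was called for 4 of 35 genes, where 10.1% of all genes were called and 6.63% higher: Idi1 (2.63), Tm7sf2 (1.69), Pmvk (1.50) and Thrsp (3.55, SE 1.18, adjusted p = 0.045). That count was 0 without HC water replicate 1 or 2, MC water replicate 1, HC PB replicate 3 or MC PB replicate 1, and 1 without MC water replicate 3. It was 2 without HC PB replicate 1 or 2 or MC PB replicate 2 or 3, and 7 without HC water replicate 3 or with the replicate block. At 24 h the same difference was called for 0 of 35 genes and 0 of all genes (0%), with 1 and 614 at an unadjusted p under 0.05.

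**Figure D4:**
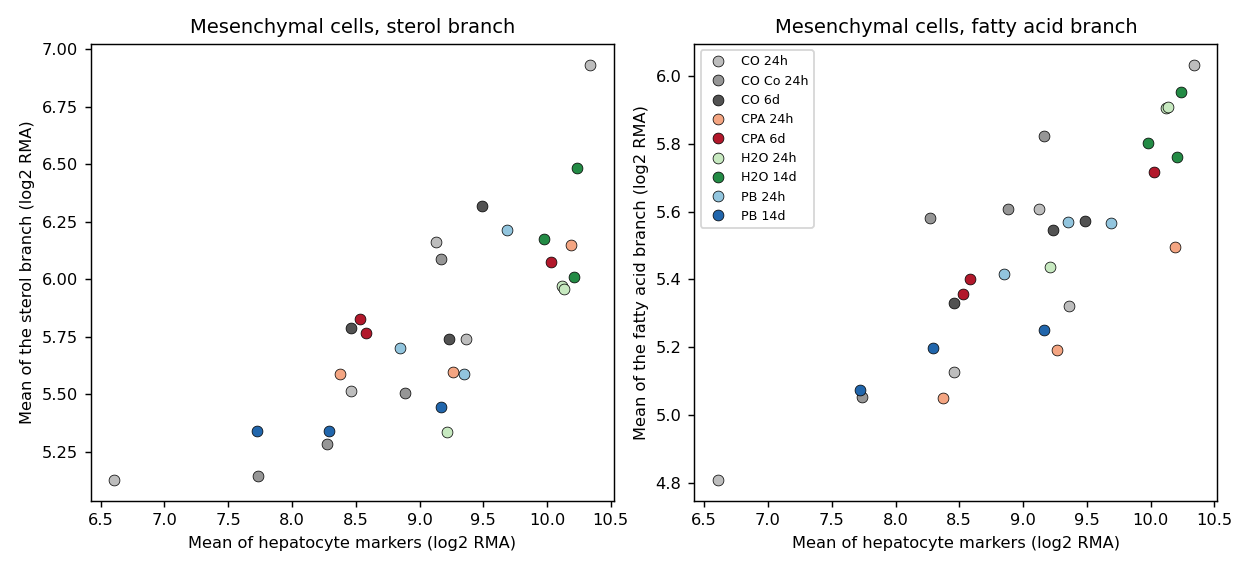
Each point is a mesenchymal array, with the mean of 17 hepatocyte markers on the horizontal axis and the mean of the sterol (left) or fatty acid genes (right) on the vertical axis, coloured by group. The array lowest in hepatocyte markers (6.61) had the lowest sterol mean (5.13), and the array highest in them (10.34) had the highest (6.93). Other arrays did not keep this order throughout. Water arrays of 24 h with marker means of 10.121 and 10.136 had sterol means of 5.97 and 5.958. A corn oil array of 24 h at 9.128 had 6.161.

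Without treatment all 35 genes were higher in hepatocytes than in mesenchymal cells, where 81% of all genes were called in either direction and 47.6% higher. Over the vehicle groups (CO and H2O, both times each) the differences ran from 0.61 for Acacb to 4.54 for Scd, with Dhcr7 at 4.35, Sc5d at 4.17 and Fads2 at 3.92. The branch medians were 2.38 and 2.41, against 0.13 over all genes. Thrsp differed by 1.20 (adjusted p = 0.00532) and ran from 5.51 to 9.96 over the MC corn oil arrays of 24 h.

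Vehicle levels in hepatocytes were also compared over time. The water groups were controls of PB by gavage at 24 h and of PB in the drinking water at 14 d. Time and any difference in how they were dosed cannot be told apart. Corn oil at 6 d minus 24 h gave 0 of 35 calls and 0 of all genes (0%), with 1 and 696 at an unadjusted p under 0.05. Water at 14 d minus 24 h gave 7 calls, 6 higher and 1 lower, where 14.3% of all genes were called, 4.88% higher and 9.43% lower. Gpam read 6.28, 5.61 and 5.21 at 14 d and 2.98, 3.04 and 4.24 at 24 h (2.28, SE 0.36, adjusted p = 0.000207). Srebf1 (1.14), Pmvk (0.95), Mvk (0.91), Dhcr7 (0.89) and Srebf2 (0.51) were also higher at 14 d, and Stard4 was lower (-0.88). The count was 3 without water replicate 1 of either time. Me1 read 5.85, 5.24 and 7.14 at 14 d, replicate 3 being the highest.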

How the data were processed

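RNA of isolated cells (250 ng a sample) was hybridised to 60 Affymetrix arrays. The authors deposited log2 values made with RMA, per the submitters' processing notes; its version is not given in the sources used here. Of 31042 probe sets, 20826 had 1 gene symbol in the probe table, 436 several and 9780 none. Each gene was read from its brightest probe set (by the mean of the 60 arrays), giving 14217 genes.

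Tests used limma 3.58.1 (lmFit, eBayes) in R 4.3.3, with 1 mean per group over the 30 arrays of a fraction, or all 60 for differences between fractions, and Benjamini-Hochberg adjustment over all genes, called under 0.05. The scripts were tested on simulated data. No sex term was used, because treated and control groups had the same labelled sex, or the same replicate labelled female, and the protocol names males for PB; a sex term was an alternative. Other alternatives were the mean of probe sets, a minimum of 5, array centring, array weights, a replicate block, marker covariates, CO_Co controls, only the compared groups, and leave-outs.

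The genes and lists were chosen with earlier results of these data known. In each comparison the 3 called genes with the largest change per branch (or the one with the smallest p) are given by array, and Sqle, Insig1, Srebf2, Fasn, Acly, Scd, Srebf1, Me1 and Thrsp always. From other lists up to 4 called genes are named. The main tests did not pair samples. The replicate block was an alternative setting only, and was also run for comparisons other than PB at 14 d. For PB at 14 d, same-numbered treated and water arrays deviated together (r between 0.2 and 0.459 for HC, 0.255 and 0.644 for MC). This pairing comes from the data. Arrays of a group correlated with r from 0.938 to 0.9974, and none were identical.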

Additional observations from a re-analysis of the deposited data

Results flagged for a closer look

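The effect of CPA differed between fractions by test for 8 of the 35 genes at 24 h, where 8.43% of all genes were called. The largest called difference was Fads2 at -1.71 (hepatocytes minus mesenchymal cells). At 6 d it differed for 10 (Scd at -2.86), where 4.58% of all genes were called. That of PB at 14 d differed for 4 (Thrsp at 3.55), where 10.1% of all genes were called, a share close to that of the list. The fraction counts changed when single arrays were left out, as given below. Between times, the CPA effect in hepatocytes differed for 3 genes (Mlxipl at -1.63, 6 d minus 24 h), where 14.5% of all genes were called. Between compounds at 24 h in hepatocytes it differed for 25 (Insig1 at 2.36, PB minus CPA), where 20.8% of all genes were called.

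Single arrays stood apart in 3 of 68 groups of 4 or 5 values checked with Dixon's test, and chance gives about 1 in 20. Fads2 was 8.34 in replicate 3 of the hepatocyte CO_Co group, where the others were 8.78 to 8.86. Srebf2 was 5.69 in replicate 1 of the mesenchymal corn oil group at 24 h (others 5.07 to 5.18), the array with the lowest hepatocyte marker mean (6.61). Pmvk was 6.84 in replicate 2 of the mesenchymal CO_Co group (others 5.53 to 5.63), the array with the highest hepatocyte marker mean of its group (9.16).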

How the results depend on the processing

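The calls of CPA in hepatocytes stayed within 1.5 times under every alternative run: 23 to 31 at 24 h and 20 to 31 at 6 d (leaving out 1 array, 23 to 28 and 20 to 27). All were lower, except Mlxipl, higher at 24 h in 6 settings. PB gave 1 call in hepatocytes at 24 h with array weights and 0 to 1 at 14 d when 1 array was left out (1 without water replicate 3). In mesenchymal cells PB at 24 h gave 4 with array weights and 0 to 1 in the leave-outs (1 without water replicate 3). PB at 14 d gave 14 with array centring, 19 with the replicate block, 15 with array weights, 0 with the hepatocyte marker covariate and 0 to 7 in the leave-outs. CPA at 24 h gave 5 with the block, 6 with array weights, 1 with CO_Co added to the controls and 0 to 2 in the leave-outs (1 without corn oil replicate 4, 2 without CPA replicate 1). CPA at 6 d gave 2 with the block, 5 with array weights, 2 with the compared groups alone and 1 with the hepatocyte covariate. Counts under alternative settings, here and above, are of the 35 genes alone. The share of all genes called in each setting is not given here, so a shift may not be particular to them.

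Fraction differences with the block were 7 (PB 14 d) and 13 (CPA 24 h), and in the leave-outs 0 to 7, 1 to 19 and 5 to 13 (CPA 6 d). Water at 14 d minus 24 h gave 3 to 9. For treated and vehicle arrays, only PB at 14 d had every same-numbered pair correlated over 0.1. For HC and MC arrays of one number 21 of 30 pairs were, every pair of PB and water at 14 d and of CO and PB at 24 h among them, but not every pair of CPA (0.092 to 0.353 at 24 h). CO_Co in place of CO, the Kupffer covariate and leaving out both replicate 3 arrays of PB at 24 h were chosen after seeing the data. The causes of these shifts were not tested. Of the 16 largest changes given by array and called, none reversed its direction, and those of PB at 14 d in mesenchymal cells lost their call in 16 settings and gene combinations; other calls lost in hepatocytes with CPA are given with those results.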
